A study of Mus musculus with 10 samples.

Results

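The genes described here are the 4 adult globin genes Hbb-bs, Hbb-bt, Hba-a1 and Hba-a2 and the heme synthesis gene Alas2, 5 of the 53447 genes listed for each library. RNA had been extracted from the cerebella of 5 wild-type (WT) and 5 Dscam del17/del17 mice, labelled as BALB/c, at postnatal day 21 (P21), with 1 library per mouse. The mutants are homozygous for del17, a spontaneous deletion within exon 17 of Dscam, which encodes a cell adhesion molecule of neurons, a loss-of-function allele present in the whole animal. The line came from a mouse repository and was crossed to BALB/cCrSlc mice by the study, and both sexes were used. The study compared the cerebellar transcriptome of both genotypes, with no treatment in either. The 5 genes were chosen on measured values of these libraries, namely their higher level in the mutants, so their difference between genotypes is described without a test.

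Haemoglobin, the oxygen carrier of red blood cells, is built from α-globin and β-globin chains, each holding a heme group. In adult mice of the reference strain the α chains come from Hba-a1 and Hba-a2 and the β chains from Hbb-bs and Hbb-bt. These genes are transcribed in maturing red cells under the control of a distant enhancer region at each locus. Young red cells, the reticulocytes, have lost the nucleus and still carry globin RNA, so tissue taken without flushing out the blood holds it too. Alas2 encodes the erythroid form of 5-aminolevulinate synthase, the first enzyme of heme synthesis, whereas Alas1 encodes the form used by other cells. Globin RNA at low levels has also been described in neurons. The methods name perfusion fixation and cervical dislocation for the study's mice, and which of these applied to the cerebella used for RNA is not given in the sources used here.

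In the reference genome the genes of each globin pair are near-copies of each other. Hbb-bs (chromosome 7, 103826534 to 103828096, minus strand) and Hbb-bt (chromosome 7, 103812524 to 103813996, minus strand) lie side by side in the GENCODE M21 annotation of GRCm38. Their coding sequences of 444 bases differ at 1 base, and the encoded proteins of 147 residues differ at 0. Hba-a1 (chromosome 11, 32283511 to 32284465, plus strand) and Hba-a2 (chromosome 11, 32296489 to 32297298, plus strand) differ at 1 of 429 coding bases and at 0 of 142 residues. Of all stretches of 100 bases in the Hbb-bs transcript, 62.6% also occurred in that of Hbb-bt, and 56.5% of those of Hba-a1 occurred in Hba-a2. The split of reads within each pair is thus uncertain, and as to that split the sum of a pair is firmer than either gene. BALB/c mice, to which the line was crossed, carry a β-globin haplotype other than that of the reference strain, so the names Hbb-bs and Hbb-bt here are those of the reference genes to which the reads were assigned. Whether all mice carried the same haplotype is not known here, and its part in the β-globin levels, sums and ratios was not tested. Alas2 (chromosome X, 150547375 to 150570638, plus strand) has no near-copy among these genes.

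The promoters are shown because the 4 globin genes share 2 motifs that the same window of Alas2 does not hold. The sequences are from RefSeq (build GRCm38.p6, table of promoters, in which 5 of 5 genes were found), written 5′ to 3′ on the strand of the gene. Capitals mark matches, on either strand, to 4 searched motifs, which did not overlap within the stretches shown. These were the CCAAT box, the letters TATAA for the core promoter element, the letters GATAA for factors of the GATA family, and CCNCNCCC for factors of the KLF1 type. Each stretch lies within the 120 bases before the RefSeq start of the gene, outside transcribed untranslated exons of GENCODE M21. It covers chr7:103827929-103828011 for Hbb-bs, chr11:32296372-32296488 for Hba-a2 and chrX:150547297-150547374 for Alas2.
Hbb-bs: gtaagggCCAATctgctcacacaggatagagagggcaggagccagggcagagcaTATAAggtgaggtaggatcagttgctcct
Hba-a2: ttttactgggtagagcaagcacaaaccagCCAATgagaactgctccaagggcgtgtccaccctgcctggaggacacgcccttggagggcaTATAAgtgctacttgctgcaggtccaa
Alas2: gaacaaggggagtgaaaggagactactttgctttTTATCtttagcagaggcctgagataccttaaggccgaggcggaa
Over the full 120 bases, CCAAT and TATAA occurred together in all 4 globin genes and in 2.56% of 32851 promoters of mouse genes. CCAAT began 76 bases before the start in Hbb-bs and 91 in Hba-a2, and TATAA 29 and 30 bases before it. The 120 bases of Hba-a1 were identical to those of Hba-a2 at 120 of 120 positions when shifted by 3 bases. Alas2 held GATAA on the minus strand, 86 bases before the start, a motif found in 10.5% of all promoters, and held neither CCAAT (21.3%) nor TATAA (11.8%). CCNCNCCC occurred in Hbb-bs, Hbb-bt and Alas2 and in 34.6% of all promoters.

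The deposited values are TPM, a measure of transcript abundance that is scaled per library and per transcript length and keeps no read number, and sequencing depth is therefore unknown. The listed TPM of a library summed to between 684771 and 838532 in WT and between 775148 and 805869 in the mutants. WT replicate 5 had the smallest sum and the fewest genes at 0.5 TPM or more (15623, against 17101 to 17763 in the other 9 libraries). Dscam itself, which carries the deletion, had 7.72 ± 1.15 TPM (SD, n = 5) in WT and 4.37 ± 0.979 TPM in the mutants, with every mutant below every WT library. The cerebellar label fitted the Purkinje cell gene Pcp2 (1380 to 2605 TPM over the 10 libraries) and Cbln1 of granule cells (587 to 920 TPM).

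β-globin RNA was the most abundant of the set and was higher in the mutant libraries. Hbb-bs, the gene with the 77th highest mean of all genes listed, was at 621, 763, 754, 562 and 386 TPM in WT replicates 1 to 5 and at 939.8, 772, 1350, 1080 and 1019 TPM in mutant replicates 1 to 5. All 5 mutant libraries lay above all 5 WT libraries, although mutant replicate 2 and WT replicate 2 lay only 772 against 763 TPM apart. The means were 617 ± 155 TPM in WT and 1032 ± 212 TPM in the mutants (SD, n = 5), a ratio of 1.67 and a log2 difference of 0.76. The log2 difference is that of log2(TPM + 0.1), mutant minus WT, here and throughout. The separation rests on the scale: with libraries rescaled to an equal listed sum, or to an equal median of the genes tested, the genotypes overlapped and 4 of 5 mutant libraries lay above the WT range, at ratios of 1.66 and 1.58. In all, 0.419% of the 17168 genes tested had every mutant library above every WT library, and since Hbb-bs was chosen by this contrast nothing is read from its being 1 of them. The sum of Hbb-bs and Hbb-bt, firmer as to the split of reads, overlapped on the deposited scale, with mutant replicate 2 (935 TPM) below WT replicate 3 (956 TPM). Its means were 759 ± 187 TPM in WT and 1251 ± 253 TPM in the mutants (SD, n = 5).

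Hbb-bt, the neighbouring β-globin gene, was less abundant and, like Hbb-bs, was highest in mutant replicate 3 and lowest among the mutants in replicate 2. It was at 136, 146, 202, 121 and 102 TPM in WT replicates 1 to 5 and at 179, 163, 266, 239 and 249 TPM in mutant replicates 1 to 5. The genotypes overlapped, with 3 mutant libraries above the WT range and WT replicate 3 within the mutant range. The means were 141 ± 37.8 and 219 ± 45.3 TPM (SD, n = 5), a ratio of 1.55 and a log2 difference of 0.65.

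The α-globin genes differed less between genotypes than the β-globin genes. Hba-a1 was at 324, 339, 456, 379 and 327 TPM in WT replicates 1 to 5 and at 411, 335, 603, 486 and 595 TPM in mutant replicates 1 to 5, with means of 365 ± 55.4 and 486 ± 116 TPM. Its genotypes overlapped, and mutant replicate 2 lay among the low WT libraries. Hba-a2 was at 255, 254, 378, 266 and 249 TPM in WT replicates 1 to 5 and at 287, 251, 466, 320 and 434 TPM in mutant replicates 1 to 5, with means of 281 ± 54.9 and 352 ± 94.0 TPM. Here WT replicate 3 stood above 3 of the mutant libraries. The log2 differences were 0.39 for Hba-a1 and 0.30 for Hba-a2, at ratios of 1.33 and 1.25. Without mutant replicate 3, the library with the most globin RNA, that of Hba-a2 was 0.19.

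Alas2 was a far rarer transcript, with the 10086th highest mean, and had the widest ratio between genotypes. It was at 3.83, 9.77, 4.60, 4.50 and 1.11 TPM in WT replicates 1 to 5 and at 6.21, 14.8, 12.2, 9.69 and 5.87 TPM in mutant replicates 1 to 5. Its highest library in each genotype was replicate 2 and its lowest replicate 5, so WT replicate 2 lay inside the mutant range and the other 4 WT libraries below it. The means were 4.76 ± 3.14 and 9.76 ± 3.84 TPM (SD, n = 5), a ratio of 2.05 and a log2 difference of 1.21. Without WT replicate 5 the log2 difference was 0.78.

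**Figure D1:**
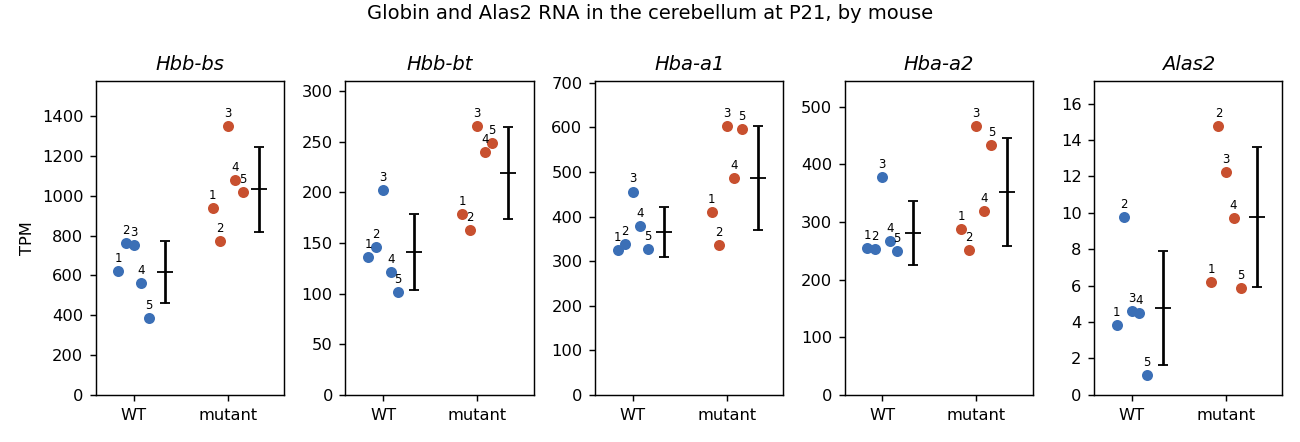
TPM (y axis, linear, from 0) of each gene in each mouse, WT in blue and Dscam del17/del17 in red, with replicate numbers above the points and bars for the mean and SD over 5 mice. On this deposited scale the genotypes separate for Hbb-bs (763 TPM at most in WT, 772 TPM at least in the mutants) and overlap for the other 4 genes. With libraries rescaled to an equal listed sum or an equal median they overlap for Hbb-bs too.

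The fit over all 17168 genes that passed the filter, these 5 included, called 0 genes between genotypes at an adjusted p under 0.05 (limma, Benjamini-Hochberg), a background of 0% called. At an unadjusted p under 0.05 there were 953 genes, 394 higher and 559 lower in the mutants. Leaving out WT replicate 1 gave 1586 such genes, and leaving out WT replicate 2 gave 1634. The log2 difference of all genes tested had a median of 0.05. A larger log2 difference than that of Alas2 was found in 2.90% of them. For Hbb-bs, Hbb-bt, Hba-a1 and Hba-a2 the shares were 7.47%, 9.81%, 19.6% and 25.1%. These genes were chosen as higher in the mutants, so the shares describe their rank and are no test.

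Together the 4 globin genes made up 1064 to 1790 TPM in the WT libraries and 1521 to 2686 TPM in those of the mutants, or 0.155% to 0.236% and 0.196% to 0.344% of the listed TPM. Mutant replicate 3 was the highest and mutant replicate 2 the lowest mutant library for each of the 4 globin genes. Within WT, replicate 3 was the highest for Hbb-bt, Hba-a1 and Hba-a2, and replicate 5 the lowest for Hbb-bs, Hbb-bt, Hba-a2 and Alas2. From the lowest to the highest library the globin genes spanned 1.41-fold to 1.99-fold within WT and 1.63-fold to 1.86-fold within the mutants. Alas2 spanned 8.78-fold within WT and 2.52-fold within the mutants. In bulk tissue, fewer cells of a type and less RNA per cell cannot be told apart, so these levels do not separate the number of globin-bearing cells from their RNA content.

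The balance of α-globin to β-globin RNA varied between libraries. The summed TPM of the α genes over that of the β genes was 0.765, 0.653, 0.872, 0.945 and 1.18 in WT replicates 1 to 5. In the mutants it was 0.623, 0.627, 0.662, 0.611 and 0.812 in the same order. Of the mutants, 4 thus lay in a narrow band below 4 of the WT libraries, while mutant replicate 5 lay among the WT libraries, and the means were 0.883 ± 0.200 and 0.667 ± 0.083 (SD, n = 5). TPM divides by the length of the transcript model, and the models behind the deposited values are not known here. The GENCODE transcripts compared above have 699 bases for Hba-a1, 554 for Hba-a2, 628 for Hbb-bs and 703 for Hbb-bt. The ratios are thus on the scale of the models used and are not counts of molecules.

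The ratio within each globin pair was steadier. Hbb-bt over Hbb-bs was 0.231 ± 0.033 in WT and 0.213 ± 0.021 in the mutants, and Hba-a2 over Hba-a1 was 0.766 ± 0.047 and 0.721 ± 0.045 (SD, n = 5). The shared sequence of each pair enters these values. Alas2 per 1000 TPM of globin ranged from 1.05 to 6.51 in WT and from 2.55 to 9.71 in the mutants, with replicate 2 the highest of both genotypes, so Alas2 and globin RNA did not keep one proportion across mice.

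**Figure D2:**
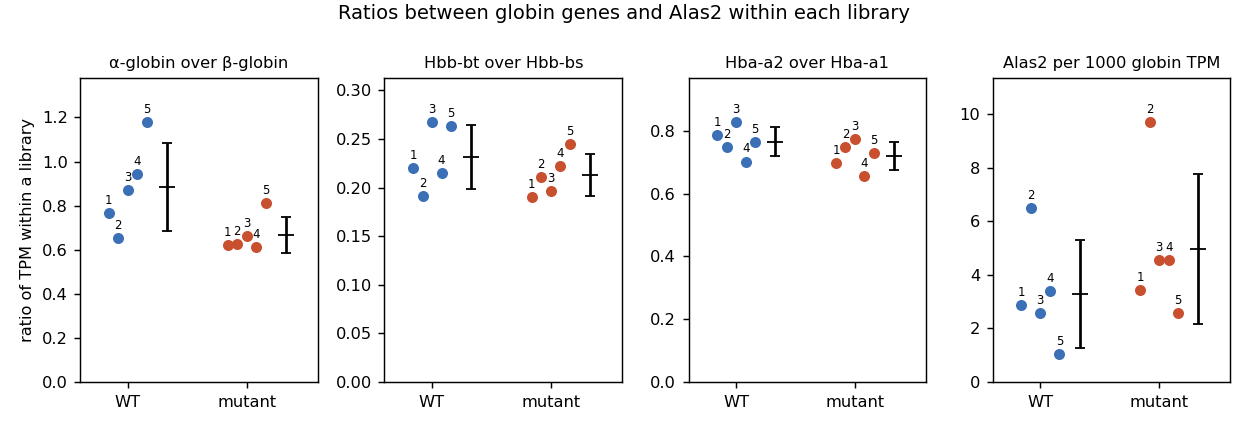
Ratios of TPM within a library (y axes, linear, from 0) for α-globin over β-globin, Hbb-bt over Hbb-bs, Hba-a2 over Hba-a1, and Alas2 per 1000 TPM of globin, by genotype, with replicate numbers and bars for the mean and SD over 5 mice. The ratios within the globin pairs vary least, from 0.191 to 0.268 and from 0.657 to 0.829 over the 10 libraries, and replicate 2 is the highest of each genotype for Alas2 per globin.

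Whether the genes moved together across mice was examined with Hbb-bs as the reference, over 10 libraries on the log2 scale, against 12 measures. The permutation tests were two-sided, with 100000 resamples and p adjusted over the 12 measures. Hbb-bt followed Hbb-bs most closely (Pearson r = 0.94, permutation p = 6.0e-05, adjusted p = 0.00072; Spearman rho = 0.92, permutation p = 0.0006, adjusted p = 0.0072). For Hba-a1 r was 0.78 (permutation p = 0.0061, adjusted p = 0.030) and rho 0.78 (permutation p = 0.011, adjusted p = 0.063). For Hba-a2 r was 0.71 (permutation p = 0.019, adjusted p = 0.058) and rho 0.68 (permutation p = 0.035, adjusted p = 0.084). For Alas2 r was 0.79 (permutation p = 0.0075, adjusted p = 0.030) and rho 0.75 (permutation p = 0.017, adjusted p = 0.069). These pooled values contain the genotype difference on which the genes were chosen, so the values within genotype carry the comparison.

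With each genotype centred on its mean, only Hbb-bt kept its call among the 12 measures, at r = 0.87 (permutation adjusted p = 0.015). Reads from the sequence shared by Hbb-bs and Hbb-bt are split between them, so this r cannot show that the pair moved together. The centred r was 0.63 for Hba-a1, 0.63 for Hba-a2 and 0.64 for Alas2, each at a permutation adjusted p of 0.119. The values with libraries left out, given next, were not centred and again contain the genotype difference on which the genes were chosen. Without the 2 libraries farthest from the median of Hbb-bs, mutant replicate 3 and WT replicate 5, r was 0.90 for Hbb-bt (permutation adjusted p = 0.028). It was 0.70 for Hba-a1 (permutation adjusted p = 0.18), 0.56 for Hba-a2 (0.37) and 0.43 for Alas2 (0.57). The call for Hba-a1 thus ended with 8 libraries left, at a similar r, and for Alas2 the r itself fell. Leaving out single libraries also ended calls of the pooled r. For Hba-a1 these were WT replicate 1 (r = 0.77, permutation adjusted p = 0.064 without it), mutant replicate 3 (0.69, 0.15) and mutant replicate 4 (0.77, 0.057). For Alas2 they were WT replicates 1 (0.78, 0.064), 4 (0.80, 0.057) and 5 (0.57, 0.27) and mutant replicates 3 (0.77, 0.10) and 4 (0.78, 0.057). Without WT replicate 3, r for Hba-a2 was 0.76 (permutation adjusted p = 0.044).

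Between the other pairs the values are given as a description. The 2 α-globin genes, which share most of their sequence, had r = 0.96. Hbb-bt, on another chromosome than the α genes, had r = 0.89 with Hba-a1 and 0.85 with Hba-a2, and 0.83 and 0.85 with each genotype centred. Alas2 had r = 0.35 with Hba-a1 and 0.28 with Hba-a2, and -0.03 and -0.01 with each genotype centred. Within genotype the r of Alas2 with the α-globin genes was thus near 0, and that of Hbb-bt with them was high. Hbb-bt and Alas2 lay between, at r = 0.63, and 0.35 with each genotype centred.

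**Figure D3:**
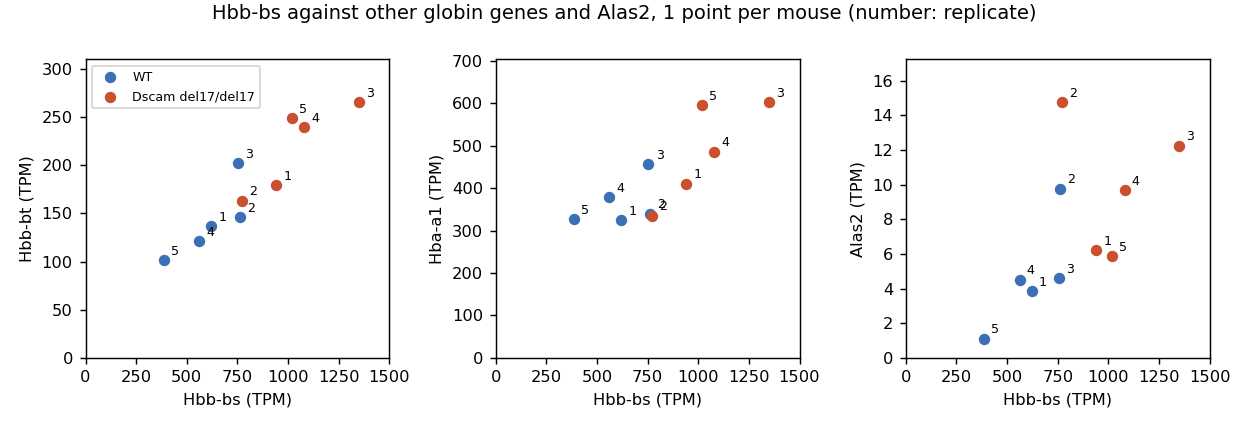
Hbb-bs (x axis, TPM) against Hbb-bt, Hba-a1 and Alas2 (y axes, TPM), 1 point per mouse with its replicate number, WT in blue and Dscam del17/del17 in red. The points for Hbb-bt lie near a line (r = 0.94 on the log2 scale), while for Alas2 the replicates numbered 2 stand high for their Hbb-bs level. That r contains the genotype difference on which the genes were chosen. Reads from the sequence shared by Hbb-bs and Hbb-bt are split between them, so it cannot show that the pair moved together.

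The 10 other tested genes most like Hbb-bs, by Pearson r over the 10 libraries, were Nefl (0.93), C130075A20Rik, Crebl2 and C030015A19Rik (0.92 each), Klk6, Spp1, Mir29b-2, Mipol1 and Dach1 (0.91 each) and Gm37521 (0.89). Only Hbb-bt ranked above them. Alas2 ranked 130th, Hba-a1 162nd and Hba-a2 618th among all genes tested. Nefl encodes the light neurofilament chain of axons, Klk6 a secreted protease made by oligodendrocytes and Spp1 the secreted protein osteopontin. With each genotype centred, the r of Nefl was 0.83, at rank 100, and that of C030015A19Rik was 0.94, at rank 1. The libraries share 1 scaling and the r contains the genotype difference, so the order is a description.

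The other globin genes did not share the level of the adult 4. The embryonic globin genes Hbb-y, Hbb-bh1 and Hba-x, and also Hbb-bh0 and Hbb-bh2, were listed at 0 in all 10 libraries. The θ-globin genes Hbq1a and Hbq1b, whose function is not established, were at 2.22 TPM or less in every library and did not pass the filter of 0.5 TPM in 5 libraries. Of the globins of other cells, cytoglobin (Cygb), made by fibroblasts and some neurons, spanned 55.5 to 69.9 TPM in WT libraries and 54.9 to 63.2 TPM in mutant libraries. Its log2 difference was -0.07 (95% interval -0.29 to 0.14, limma adjusted p = 0.86). Neuroglobin (Ngb) and myoglobin (Mb) were at 2.11 TPM or less. The log2 difference of Ngb was 0.92 (95% interval -1.11 to 2.95, limma adjusted p = 0.82). That of Mb was 0.34 (95% interval -1.81 to 2.50, limma adjusted p = 0.94). Of these 10 genes, 3 were tested and 0 were called, with 2 log2 differences above 0, 1 below and a median of 0.34. That median was above 0 in 13 of 19 alternatives and below in 6.

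The remaining enzymes of heme synthesis, which every cell uses, did not share the difference of Alas2. All 13 genes of heme synthesis other than Alas2 were tested, and 0 were called, with 8 log2 differences above 0 and 5 below and a median of 0.01. Alas1, the counterpart of Alas2 in other cells, was at 30.2 ± 3.34 TPM in WT mice and 30.9 ± 5.81 TPM in mutant mice (log2 difference 0.02, 95% interval -0.31 to 0.35, limma adjusted p = 0.97). On the TPM scale Alas1 was thus more abundant than Alas2 in both genotypes. Alad, the second enzyme, was at 92.4 ± 18.0 and 86.2 ± 8.71 TPM, and Fech, which inserts the iron, at 31.7 ± 4.61 and 33.9 ± 3.27 TPM (log2 difference 0.10, 95% interval -0.18 to 0.39, limma adjusted p = 0.86). The smallest p of the list were those of Ppox (39.3 ± 5.64 and 31.5 ± 2.25 TPM, log2 difference -0.31), Slc25a39 (94.4 ± 19.5 and 73.6 ± 8.33 TPM, -0.34) and Cpox (19.7 ± 4.12 and 23.9 ± 3.37 TPM, 0.30), each at a limma adjusted p of 0.78. Of Slc25a38, the mitochondrial glycine carrier that heme synthesis needs in red cell precursors, there were 31.2 ± 3.68 and 31.5 ± 5.20 TPM. Uros, Urod, Abcb10, Tmem14c and Clpx had log2 differences between -0.08 and 0.29, and none was called.

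**Figure D4:**
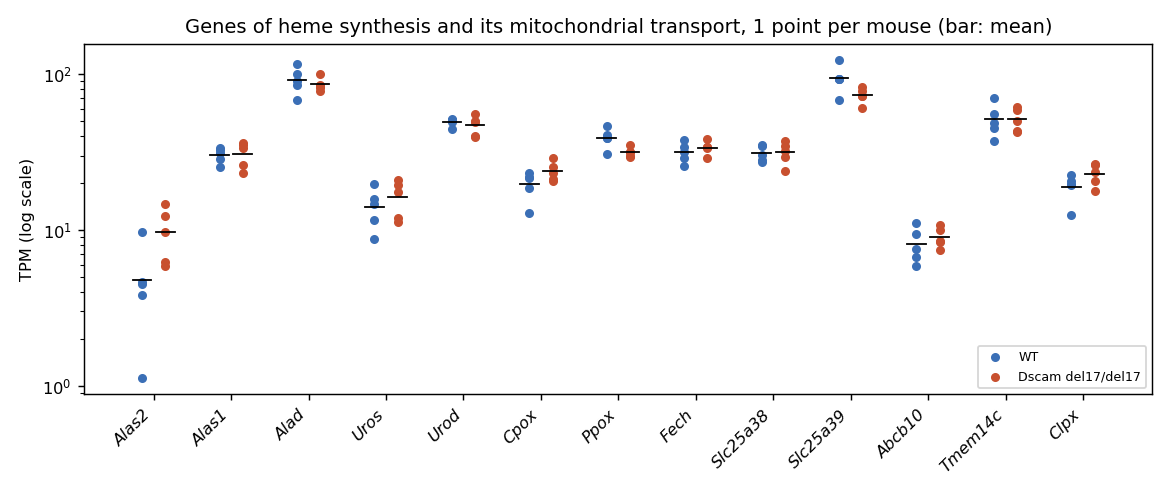
TPM (y axis, log scale) of Alas2 and 12 other genes of heme synthesis and its mitochondrial transport in each mouse, WT in blue and Dscam del17/del17 in red, with a bar for the mean of 5 mice. Alas2 is the gene with the widest spread and, in WT, with the lowest mean (4.76 TPM), and the genotypes of the other 12 genes overlap.

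Genes that handle heme and iron after synthesis did not move as a group. Of 16 genes for heme transport and breakdown, 13 were tested and 0 were called, with 5 log2 differences above 0 and 8 below and a median of -0.05. Hmox1, which breaks heme down and is induced by it, was at 5.67 ± 1.40 TPM in WT mice and 3.85 ± 0.639 TPM in mutant mice (log2 difference -0.53, 95% interval -1.07 to 0.01, limma adjusted p = 0.78). Flvcr1, a heme exporter, was at 7.61 ± 1.67 and 9.17 ± 1.45 TPM. All 16 genes of iron handling were tested and 0 were called, with 9 above 0, 7 below and a median of 0.01. The ferritin chains Fth1 (1856 ± 127 and 1896 ± 88.5 TPM) and Ftl1 (717 ± 94.1 and 617 ± 44.4 TPM), which store iron, were the most abundant of that list. Heph, a ferroxidase of iron export, was at 0.438 ± 0.321 and 1.01 ± 0.382 TPM (log2 difference 1.19, 95% interval -0.01 to 2.39, limma adjusted p = 0.78), and Steap3, a ferrireductase of red cell precursors, at 1.31 ± 0.789 and 0.575 ± 0.284 TPM.

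The other genes that define red cells and their precursors were near 0. Of 9 defining genes, 8 were listed and 0 reached the filter. Rhag, of the Rh complex of the red cell membrane, and Gata1, the transcription factor of the lineage, were listed at 0 in all 10 libraries. Slc4a1, the anion exchanger of the red cell membrane, was at 0.578 TPM or less in WT and at 0.773 TPM or less in the mutants. Klf1, the activator of adult β-globin, had its highest values in mutant replicates 1 (1.23 TPM) and 5 (0.876 TPM). It was above 0 in 2 of 5 WT and 3 of 5 mutant libraries. Epb42 and Hemgn stayed at 0.251 TPM or less. The summed level of the 8 genes was 0 to 1.41 TPM in WT mice and 0.266 to 3.12 TPM in mutant mice, and its part in the globin difference was not tested.

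A wider list of 27 genes of erythroid cells, of which 26 were listed and 7 were at 0 throughout, also did not move as a group. Of the 9 tested, 4 had log2 differences above 0 and 5 below, with a median of -0.01, and 0 were called. Those 9 are also used by other cells of the cerebellum. Ank1 and Sptb, of the membrane skeleton that neurons share with red cells, were at 100.4 ± 23.6 and 119 ± 13.3 TPM, and at 91.5 ± 11.9 and 85.5 ± 6.79 TPM. The mean log2 level of the list had r = -0.03 with Hbb-bs (permutation adjusted p = 0.93), and rho was 0.01.

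Of the tested genes of neutrophils, platelets, lymphocytes and monocytes, 1 had a log2 difference above 0 and the others below, and 0 were called, as over all genes tested. Of 14 neutrophil genes, 2 were tested, both with log2 differences below 0, and the summed level of the list was 2.20 to 29.9 TPM in WT mice and 0.288 to 6.64 TPM in mutant mice. S100a9, an abundant protein of neutrophils, was at 1.86, 8.03, 0.806, 1.90 and 0 TPM in WT replicates 1 to 5 and, of the mutants, above 0 only in replicate 4 (1.26 TPM). Its log2 difference was -2.87 (95% interval -5.41 to -0.34, limma adjusted p = 0.78). The platelet gene Itga2b was at 1.51 ± 1.13 TPM in WT mice and 0.377 ± 0.246 TPM in mutant mice, and Pf4 at 2.38 ± 2.58 and 0.520 ± 0.738 TPM. Gp1bb, also on the platelet list, was at 73.5 to 104 TPM over the 10 libraries and made up most of the summed platelet level, 78.6 to 108 TPM in WT mice and 73.7 to 98.4 TPM in mutant mice. All 3 platelet genes tested, of 9, had log2 differences below 0. For 15 genes of lymphocytes and monocytes the summed level was 7.19 to 16.2 TPM in WT mice and 5.68 to 13.1 TPM in mutant mice, with 3 tested. The part of carried-over blood in the globin levels was not tested.

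The vessels that hold the blood were also compared. All 18 endothelial genes were tested and 0 were called, with 8 log2 differences above 0, 10 below and a median of -0.03. Cldn5, a tight junction protein of brain endothelium, was at 57.8 ± 7.88 TPM in WT mice and 50.2 ± 6.24 TPM in mutant mice (log2 difference -0.20, 95% interval -0.48 to 0.08, limma adjusted p = 0.78). Egfl7 (log2 difference -0.48) and Cdh5 (-0.57), both made by endothelium, lay below 0. Ly6a, a surface protein of endothelium and of blood cells, lay above it, at 3.97 ± 2.58 and 10.3 ± 4.59 TPM (log2 difference 1.52, 95% interval 0.49 to 2.54, limma adjusted p = 0.78). The mean level of the endothelial list had r = 0.54 with Hbb-bs (permutation adjusted p = 0.29) and 0.76 with each genotype centred (permutation adjusted p = 0.057). Without the 2 libraries farthest from the median of Hbb-bs it was -0.38 (permutation adjusted p = 0.59), and without WT replicate 5 alone -0.23, so its sign rests on that library.

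Pericytes and smooth muscle, the cells around the vessels, had 9 of 11 genes tested, 8 with log2 differences below 0 and 1 above, and 0 called. The median was -0.46, against 0.05 for all genes tested. Vtn (77.3 ± 7.02 and 57.7 ± 6.94 TPM, log2 difference -0.42), Tagln (14.4 ± 2.56 and 9.45 ± 2.53 TPM, -0.62) and Myh11 (3.86 ± 0.519 and 2.50 ± 0.231 TPM, -0.60) each had a limma adjusted p of 0.78. The summed level of the 11 genes was 150.6 to 175 TPM in WT mice and 112 to 150.02 TPM in mutant mice, on the opposite side to the globin genes. The genotypes lay only 150.6 against 150.02 TPM apart, and the sum was not compared on other scales. The mean log2 level of the list had r = -0.48 with Hbb-bs (permutation adjusted p = 0.30). With each genotype centred the sign was the opposite, at r = 0.47 (permutation adjusted p = 0.30). Of 9 genes of meningeal fibroblasts, from the vessel-bearing cover of the brain, 7 lay below 0 and 2 above, with a median of -0.18, and 0 were called. Slc6a13, a GABA transporter of the meninges, had the smallest p of them (12.2 ± 2.28 and 5.83 ± 1.88 TPM, log2 difference -1.09, 95% interval -1.66 to -0.53, limma adjusted p = 0.78). Without the 2 libraries farthest from the median of Hbb-bs, the meningeal list had r = -0.91 with Hbb-bs (permutation adjusted p = 0.028), against -0.07 over all 10 libraries (permutation adjusted p = 0.92). Leaving out WT replicate 5 alone gave r = -0.87 (permutation adjusted p = 0.014), and with each genotype centred the sign was the opposite, at r = 0.42 (permutation adjusted p = 0.33).

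Tissue at the edge of the dissection and other cell types were compared in the same way. The 11 choroid plexus genes, of the vascular tissue in the ventricles, had a median log2 difference of 0.06 with 7 above 0, and Ttr, its most abundant transcript, was at 2818 ± 668 TPM in WT mice and 2641 ± 574 TPM in mutant mice. The 11 microglial genes had a median of 0.09 with 6 above 0, and the 12 genes of cerebellar neurons a median of 0.02 with 6 above 0. No gene of these lists was called. The mean levels of these lists had r of 0.45, -0.28 and 0.46 with Hbb-bs, with permutation adjusted p of 0.30, 0.57 and 0.30. Without WT replicate 5 the r of choroid plexus and of neurons turned sign, to -0.36 and -0.13, and without the 2 libraries farthest from the median of Hbb-bs they were both -0.25. With each genotype centred the 3 values were 0.59, -0.36 and 0.40. The microglial r was 0.02 without mutant replicate 3.

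Genes that respond to low oxygen were compared because haemoglobin carries oxygen and Epo drives red cell formation. Of 13 genes, 12 were tested and 0 were called, with 9 log2 differences above 0, 3 below and a median of 0.19. That median was 0.05 without WT replicate 5, 0.08 without mutant replicate 1, and 0.29 and 0.30 without WT replicate 2 and mutant replicate 2. Slc2a1, the glucose transporter of the blood-brain barrier, was at 67.5 ± 8.69 and 82.3 ± 9.22 TPM (log2 difference 0.29, 95% interval 0.03 to 0.54, limma adjusted p = 0.78). Epo was at 18.8 ± 3.34 TPM in WT mice and 13.7 ± 2.80 TPM in mutant mice (log2 difference -0.45, 95% interval -0.84 to -0.06, limma adjusted p = 0.78). Adm was at 1.20 ± 1.09 and 2.79 ± 1.45 TPM.

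**Figure D5:**
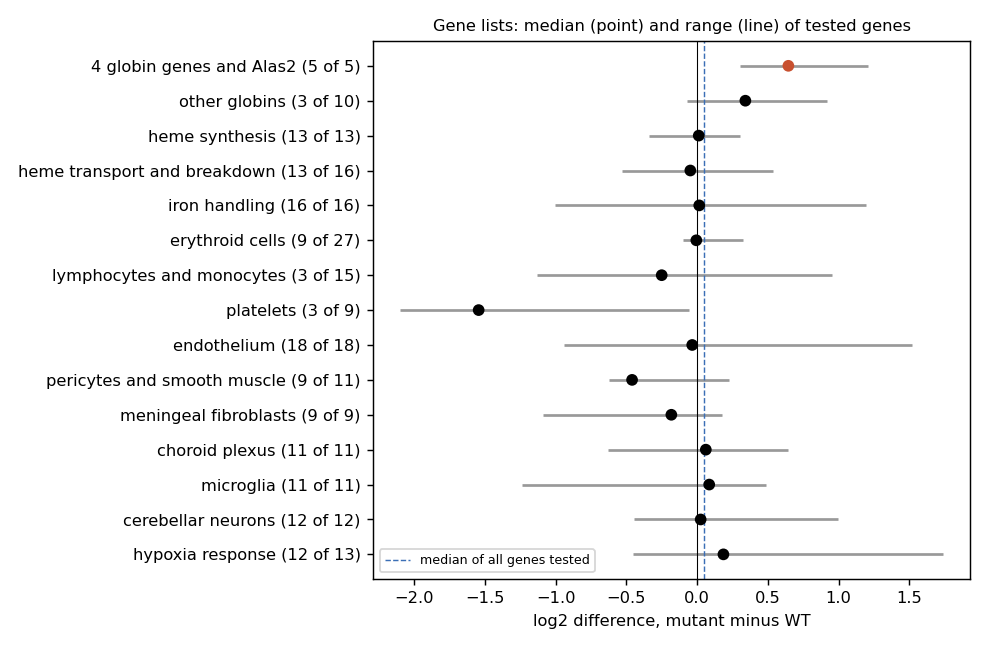
Median (point) and range (line) of the log2 difference, mutant minus WT (x axis), over the tested genes of each list, with the number tested of the number in the list, and a dashed line at the median of all genes tested (0.05). The globin and Alas2 genes (red, chosen for this contrast) have a median of 0.65, and the heme synthesis, iron and erythroid lists have medians between -0.01 and 0.01. The list of other globins, with 3 genes tested, has a median of 0.34.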

How the data were processed

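The authors trimmed the reads with Trimmomatic, aligned them to GRCm38 with HISAT2 and derived gene-level TPM with StringTie. The TPM of 10 libraries, as deposited, were used here. The kit was directional; the annotation release and strand setting are not given in the sources used here. Symbols and positions are from GENCODE M21, which named 53256 of 53447 genes.

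Genes at 0.5 TPM or more in at least 5 libraries were tested (17168), as log2(TPM + 0.1), in R 4.3.3 with limma 3.58.1 (linear model, variance trend, Benjamini-Hochberg over all genes, threshold 0.05). Correlations used permutation tests. The tests were tried on simulated data first.

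The 5 genes and all lists were chosen with earlier results of these data known. Named are the 5 genes, Dscam, the genes of other globins, heme synthesis and erythroid defining genes (3 of them are not reported here by name), the 10 genes most like Hbb-bs, and, from each other list, genes among the 3 lowest p and the 2 highest means. Alternatives were other added values, filters and scalings, a replicate block, array weights, the globin and Alas2 level as a covariate, and left-out libraries. Transcript identity was computed on GENCODE sequences, with the longest open reading frame as the coding part.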

Additional observations from a re-analysis of the deposited data

Results flagged for a closer look

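In groups of 5 libraries, a value was singled out when its gap to the nearest other library, divided by the range of the group, exceeded Dixon's 95% critical value. Of 58 groups tested, 5 gave such a value, and chance gives about 1 in 20, or 2.9 of 58. Hba-a2 was at 378.1 TPM in WT replicate 3, against 266.3 TPM in the next WT library. The summed α-globin level of the same library was 834.1 TPM, against 645.4 TPM in the next. Mutant replicate 5 had a ratio of α-globin to β-globin of 0.8122, and the next mutant library one of 0.6619. Alas2 per 1000 TPM of globin was 9.711 in mutant replicate 2 and 4.559 in the library after it. The summed level of the neutrophil list was 29.94 TPM in WT replicate 2, against 6.251 TPM in the next WT library. In that library Lcn2 (14.4 TPM), S100a9 (8.03 TPM) and S100a8 were the leading genes of the list, of which Lcn2 and S100a8 are named here after their values were seen. WT replicate 2 was also the WT library with the highest Hbb-bs and Alas2, and its α-globin level was not the highest of WT.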

How the results depend on the processing

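The log2 differences of the 5 genes stayed above 0 under all 19 alternatives tried for each. They ranged from 0.60 to 0.86 for Hbb-bs, 0.54 to 0.78 for Hbb-bt and 0.29 to 0.52 for Hba-a1. For Hba-a2 the range was 0.19 to 0.42 and for Alas2 0.72 to 1.54. The genes were chosen as higher in the mutants, and the alternatives reuse the same libraries. The constant sign is therefore no independent support for a difference. The median of all genes tested, 0.05, ranged from -0.09 to 0.10 over 20 alternatives. The median of the heme synthesis list was above 0 in 12 of them and below in 8, and that of pericytes and smooth muscle was below 0 in all 20. With the globin and Alas2 level as a covariate the medians of endothelium (-0.50), meningeal fibroblasts (-0.52) and lymphocytes and monocytes (-1.39, over 3 genes) moved farther below 0, and that of the hypoxia list was -0.03. The 5 genes of this covariate were chosen as higher in the mutants, so it is tied to genotype. Differences from that fit are therefore not comparable with those of the main fit. The hypoxia median was 0.03 with array weights and -0.02 without WT replicates 3 and 5. The number of genes called was 0 to 1 with 1 library left out, the 1 call arising without mutant replicate 4, and 0 otherwise, while 704 to 1634 genes had an unadjusted p under 0.05. Among the listed globin, heme, iron, blood and vessel genes, counted together without the 5 genes, 0 were called under any of 20 alternatives. The r of Hbb-bs with Hba-a1 and Alas2 lost its call with genotypes centred (0.6347 and 0.6373) and without the 2 farthest libraries (0.6957 and 0.4281). Leaving out 1 library, without centring, was an alternative added after seeing the data. The pooled r then ranged from 0.6934 to 0.8212 for Hba-a1 and from 0.5653 to 0.8857 for Alas2. It ranged from 0.5804 to 0.7609 for Hba-a2 and from 0.919 to 0.9613 for Hbb-bt. The fit without WT replicates 3 and 5 was also added later. The replicate numbers did not pair the libraries (correlation of deviations 0.0079 to 0.098, 0 of 5 above 0.1), and with a replicate block 0 genes were called and 1094 had an unadjusted p under 0.05. TPM holds no depth, so counting error is unknown.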
